A study of Mus musculus with 10 samples.

Results

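The 8 genes described here encode regulators of the Hsp70 chaperone: the BAG exchange factors Bag1, Bag2, Bag3, Bag4 and Bag5, the ubiquitin ligase Stub1 (also called CHIP), and the cochaperones Hspbp1 and St13 (also called Hip). All probe sets annotated to these 8 gene symbols were taken, which gave 14 of the 45101 probe sets on the array and 8 of the 18193 genes named by a probe set with a single symbol. Affymetrix mouse arrays were hybridised with RNA from mouse embryonic fibroblasts (MEFs), 10 arrays in all. The groups were 3 arrays of preshocked hsp70 (-/-) knockout (KO) cells, 3 of unheated KO cells, 2 of preshocked (+/+) rescue cells and 2 of unheated rescue cells. Preshocked cells were heated at 43 °C for 30 minutes in a water bath, 20 hours after plating, and harvested 3 hours later, and unheated cells served as controls at the same harvest time. Each sample pooled lysates from 144 wells of 1 cell line, and the labels do not give which Hsp70 gene was deleted, how the rescue line was made, or whether either line is a single clone. Nothing in the labels states that the samples of a group came from separate cultures, so every p-value below reflects only how these arrays varied, and that may be technical variation.

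Hsp70 proteins bind and release unfolded proteins in a cycle driven by ATP, and cochaperones set the pace and the outcome of that cycle. J-domain proteins start ATP hydrolysis, St13 steadies the ADP-bound state that holds the client, and BAG-domain proteins, Hspbp1 and Hsp110 proteins release the nucleotide and with it the client. Stub1 attaches ubiquitin to clients held by Hsp70, whereas Bag3 hands clients to autophagy together with small heat shock proteins. Heat shock factor 1 (HSF1) switches on many chaperone genes after heat by binding repeats of the unit GAA and its reverse, TTC.

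A check of the labels on an inducible Hsp70 gene came first. The probe set used for Hspa1b, 1 of the inducible Hsp70 genes, read 19912 to 31556 intensity units in preshocked KO cells and 212 to 477 in unheated KO cells. It read 24677 to 37506 in preshocked rescue cells and 465 to 675 in unheated rescue cells, so the arrays labelled (-/-) held Hspa1b signal after heat. The position of these probes relative to the deleted part is not known here, so the signal does not check the deletion, and every direction drawn between the lines rests on the labels. In the text below "KO" and "rescue" stand for arrays so labelled. Median intensity was 100.4 and 107.0 on arrays 5 and 6 (a KO pair), against 50.7 to 73.7 on the other 8 arrays, and these 2 arrays lay apart on the first principal component (35.3% of the variance). Of 14 listed fibroblast markers 13 were bright enough to be tested, with summed intensity of 93272 to 108839 over all arrays. This and the other marker sums are of intensities after the quantile normalization described below. Summed neural markers, all 6 of 6 tested, were 1999 to 2354 in preshocked KO and 1974 to 2352 in unheated KO cells. They were 1205 to 1297 in preshocked rescue and 1243 to 1249 in unheated rescue cells. On the deposited scale, Nes alone read 1218 to 1484 in preshocked KO and 658 to 858 in preshocked rescue cells. It was the only neural marker called between the lines, higher in KO over both treatments (0.91 ± 0.13, log2, SE, limma). Thy1 was the only fibroblast marker called, lower in KO (-0.81 ± 0.11), and the pair block ended both calls. Muscle sums were also higher in KO (21188 to 25104) than in rescue cells (17769 to 20705), and epithelial, leukocyte and endothelial sums overlapped. Of the 4 muscle markers tested, 3 were higher in KO over both treatments and none was called. Acta2 was the brightest of them (12069 to 24889 deposited units over all arrays). Tnnt2 went the other way in unheated cells, at 3663 to 4965 deposited units in KO and 5090 to 5638 in rescue. The part of these markers in line differences was not tested.

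Bag3 rose after preshock in both lines, and in the fit without array pairs it was the only one of the 8 genes to pass the test. With array pairs as a block, Bag4 in KO cells and Bag4 and St13 in the mean of the lines passed too, as given below. Bag3 (probe set 1422452_at, chromosome 7, 128523583 to 128546981, GRCm38.p6) encodes the stress-induced BAG protein that links Hsp70 to small heat shock proteins and autophagy. Its deposited intensity was 3883, 4255 and 5027 in preshocked KO cells, against 1640, 1394 and 1104 in unheated KO cells. In the rescue line it was 4078 and 4052 in preshocked cells, against 1285 and 1288 in unheated cells. All 5 preshocked arrays lay above all 5 unheated ones, which 2.35% of the genes tested also showed.

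The change of Bag3 was of like size in both lines. Arrays were scaled to a common distribution (quantile normalization), tested with limma on the log2 scale over 10915 genes, and called at an adjusted p (Benjamini-Hochberg) below 0.05. Bag3 rose by 1.68 ± 0.17 in KO cells (log2, SE, 95% interval 1.30 to 2.07, adjusted p = 0.00403) and by 1.67 ± 0.20 in rescue cells (1.20 to 2.13, adjusted p = 0.0164). The mean of the lines was 1.67 ± 0.13 (adjusted p = 5.70e-04). The difference between the responses, KO minus rescue, was 0.02 with an interval of -0.59 to 0.62 (adjusted p = 1), so a larger response in either line within those bounds could not be told from none. In bulk RNA, a change in the number of cells that carry a transcript and a change in its amount per cell cannot be told apart.

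Of the 8 genes, 1 was called in KO cells, where 1.77% of all genes tested were called in either direction. Likewise 1 was called in rescue cells, against 0.357% of all genes, and 1 in the mean of the lines, against 4.42%. None was called in the difference of responses by limma, where 0.0% of all genes were called and no member had an unadjusted p under 0.05. The Bag3 call in rescue cells ended when any 1 of the 4 rescue arrays was left out (adjusted p = 0.139 and 0.134 without a preshocked array, 0.122 and 0.146 without an unheated one, by limma). Fitted among all 45037 probe sets, 0 of the 14 were called in KO cells (0.06% of all probe sets), 0 in rescue cells (0.0244%) and 1, Bag3, in the mean of the lines (0.238%). The Bag3 adjusted p there was 0.0736 in KO cells, and the call in the mean ended with array pairs as a block, with median centring, without arrays 5 and 6, and when array 11, 12, 13, 31, 32, 43 or 44 alone was left out. At an unadjusted p under 0.05 the fit by gene had 2, 2 and 3 of the 8 members in KO cells, rescue cells and the mean. Of all genes 12.8%, 8.36% and 17.3% reached it. Among all probe sets it was 2, 1 and 3 of the 14, and the share of all probe sets was not counted. Over all alternatives the adjusted p of Bag3 ranged from 4.40e-04 to 0.147 in KO cells with 1 probe set per gene, where median centring alone put it above the threshold, and from 0.00337 to 0.479 in rescue cells.

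**Figure D1:**
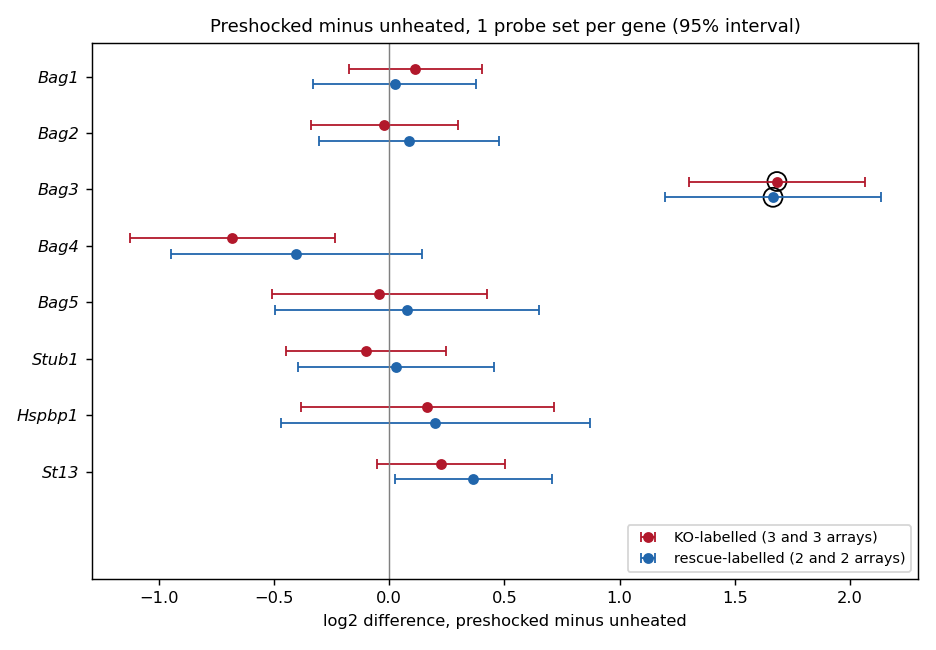
Log2 difference between preshocked and unheated arrays (x axis) for each of the 8 genes (rows), KO above and rescue below, with 95% intervals from limma; a black circle marks an adjusted p below 0.05. Bag3 stands at 1.68 in KO and 1.67 in rescue cells, and the other 7 genes lie between -0.68 and 0.36.

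Adjoining array numbers paired 1 preshocked with 1 unheated array of the same line, and the Bag3 difference within the 5 pairs was 1.95, 1.58 and 1.52 in KO pairs and 1.61 and 1.72 in rescue pairs on the normalized log2 scale. On the deposited scale these pairs had ratios of 3.05 to 3.52. The highest was the pair of arrays 5 and 6, and without that pair the difference between the lines was -0.12. The levels ran in the order preshocked KO (12.08 ± 0.10, SD, n = 3, normalized log2 intensity), preshocked rescue (11.96 ± 0.05, n = 2), unheated KO (10.39 ± 0.31, n = 3) and unheated rescue (10.29 ± 0.03, n = 2). The unheated groups overlapped. The preshocked groups did not, but the share of all genes with this is not given here, so nothing is drawn from it. The lines did not differ by limma in unheated cells (adjusted p = 0.841) or in preshocked cells (adjusted p = 0.807).

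The promoter of Bag3 is shown because it is the member that rose. RefSeq windows (GRCm38.p6) of 300 bases, 250 before to 50 after the start, matched 6 of the 8 genes by symbol, with a pair of windows for Bag5. The 250 bases before the Bag3 start (chr7:128523333-128523582, plus strand) are given with each GAA or TTC in capitals, 3 in all.

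Bag3 upstream: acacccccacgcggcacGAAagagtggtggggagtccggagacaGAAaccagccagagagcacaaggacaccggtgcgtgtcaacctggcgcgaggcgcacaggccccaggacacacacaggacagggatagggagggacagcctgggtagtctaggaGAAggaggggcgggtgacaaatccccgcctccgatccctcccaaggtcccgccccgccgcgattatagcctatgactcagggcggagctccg

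Inverted pairs of the HSF1 unit were searched on both strands as GAANNTTC and TTCNNGAA, and triplets as GAANNTTCNNGAA and TTCNNGAANNTTC, which contain the pairs. One pair was found in Bag3, at positions 43 to 50 counted from the start, and 1 in Stub1, at positions -123 to -116. No triplet was found in the windows of the 6 genes that had one. The Bag3 match ends on the last base of its window, so a triplet reaching past it could not be seen. No window was given for Bag4 or St13. The Bag3 and Stub1 sites are shown with the match in capitals, with 11 bases before it and, for Stub1, 11 after it.

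Bag3 site: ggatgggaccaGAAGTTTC
Stub1 site: agagcgcggcgGAAGCTTCtcagagctaag

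The Bag3 match lies at chr7:128523625-128523632 (plus strand) and the Stub1 match at chr17:25833035-25833042 (minus strand). GAANNTTC was held by 7.86% of all 32851 windows, TTCNNGAA by 8.52%, either by 15.1%, and a triplet by 0.603%. Stub1, whose match is also GAANNTTC but lies before the start, was not called in any comparison.

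The other BAG genes did not share the Bag3 response. Bag4 (chromosome 8, 25764538 to 25785209, GRCm38.p6 here and below), which encodes the silencer of death domains, a partner of tumour necrosis factor receptor 1, had the next largest difference, in the opposite direction. Its brightest probe set (1449186_at) read 547, 546 and 740 in preshocked KO cells, against 1046, 1096 and 890 in unheated KO cells. In rescue cells it read 567 and 577 after preshock, against 769 and 857 without heat. Every preshocked array was below every unheated one on the deposited scale, as for 1.99% of all probe sets. After normalization the arrays of both lines together overlapped, with preshocked KO up to 9.66 and unheated rescue down to 9.50 (log2). Within each line they did not overlap, and the share of all genes with this is not given here.

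The Bag4 difference did not pass the test in either line. It was -0.68 ± 0.19 in KO cells (log2, SE, 95% interval -1.13 to -0.24, adjusted p = 0.153 by limma) and -0.40 ± 0.24 in rescue cells (-0.95 to 0.14, adjusted p = 0.792). The mean of the lines was -0.54 ± 0.15 (adjusted p = 0.100). With array pairs as a block the adjusted p was 0.0414 in KO cells and 0.0266 in the mean of the lines, where 9.15% and 17.4% of all genes were called. All 5 pairs were lower (-0.73, -0.94 and -0.38 in KO, -0.47 and -0.34 in rescue), as for 22.0% of all genes tested. Over all alternatives the adjusted p of the mean ranged from 0.0266 to 0.669.

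The remaining Bag4 probe sets were dimmer and did not all follow. Probe set 1418707_at read 148 to 183 in preshocked KO, 196 to 241 in unheated KO, 143 and 234 in preshocked rescue and 313 and 179 in unheated rescue cells. It was lower in 5 of 5 pairs, with a mean response of -0.29 ± 0.26 (log2, SE), and the groups overlapped. Of all probe sets 10.7% were lower in all 5 pairs. Probe set 1439024_at read 354 to 524 over all arrays with a mean response of -0.03 ± 0.18, and was lower in 4 pairs and higher in 1.

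Bag2 (chromosome 1, 33745484 to 33757750), an exchange factor that also inhibits Stub1, had its largest differences between the lines, though none passed the test. It read 1925, 2042 and 1840 in preshocked KO cells, against 2422 and 2777 in preshocked rescue cells. In unheated cells it read 1886, 1995 and 2024 in KO, against 2735 and 2150 in rescue. All 6 KO arrays were below all 4 rescue arrays, before normalization, as for 2.2% of all probe sets, and after it, as for 5.69% of all genes tested. The difference, KO minus rescue, was -0.33 ± 0.11 over both treatments (log2, SE, 95% interval -0.58 to -0.08) and did not pass the test (adjusted p = 0.115 by limma). That interval takes the arrays as independent, whereas adjoining pairs had a consensus correlation of 0.716, so it may be too narrow. Bag2 was not called with array pairs as a block either, in a fit that called 0.229% of all genes. Over all alternatives the adjusted p ranged from 0.0623 to 0.378.

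The preshock response of Bag2 was -0.02 in KO cells (95% interval -0.34 to 0.30) and 0.09 in rescue cells (-0.31 to 0.48). Bag1 (chromosome 4, 40936398 to 40948294), an exchange factor that binds Bcl2, read 4401, 5102 and 6187 in preshocked KO cells, against 4979, 4378 and 4469 in unheated KO cells. It read 5095 and 4747 in preshocked rescue cells, against 4846 and 4465 in unheated rescue cells. The groups of Bag1 overlapped throughout, and its response was 0.11 in KO (-0.17 to 0.40) and 0.02 in rescue cells (-0.33 to 0.38). For both genes a change beyond about these bounds would lie outside the 95% intervals, and smaller ones could not be resolved.

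Bag5 (chromosome 12, 111709488 to 111713256) carries several BAG domains and inhibits Hsp70 and the ligase parkin. Its brighter probe set (1452628_at) read 752 to 864 in preshocked KO, 682 to 1041 in unheated KO, 646 and 927 in preshocked rescue and 842 and 720 in unheated rescue cells. Its response was -0.04 in KO (95% interval -0.51 to 0.42) and 0.08 in rescue cells (-0.50 to 0.65), with 2 pairs higher and 3 lower. The dim probe set 1432638_at read 12.7 to 92.6 in KO arrays and 55.5 to 138 in rescue arrays. That probe set was higher after preshock in 5 of 5 pairs, as for 9.34% of all probe sets, and lower in KO than in rescue cells by -2.00 ± 0.59 (log2, SE, adjusted p = 0.239 by limma), a difference the brighter one did not show (0.11 ± 0.20).

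**Figure D2:**
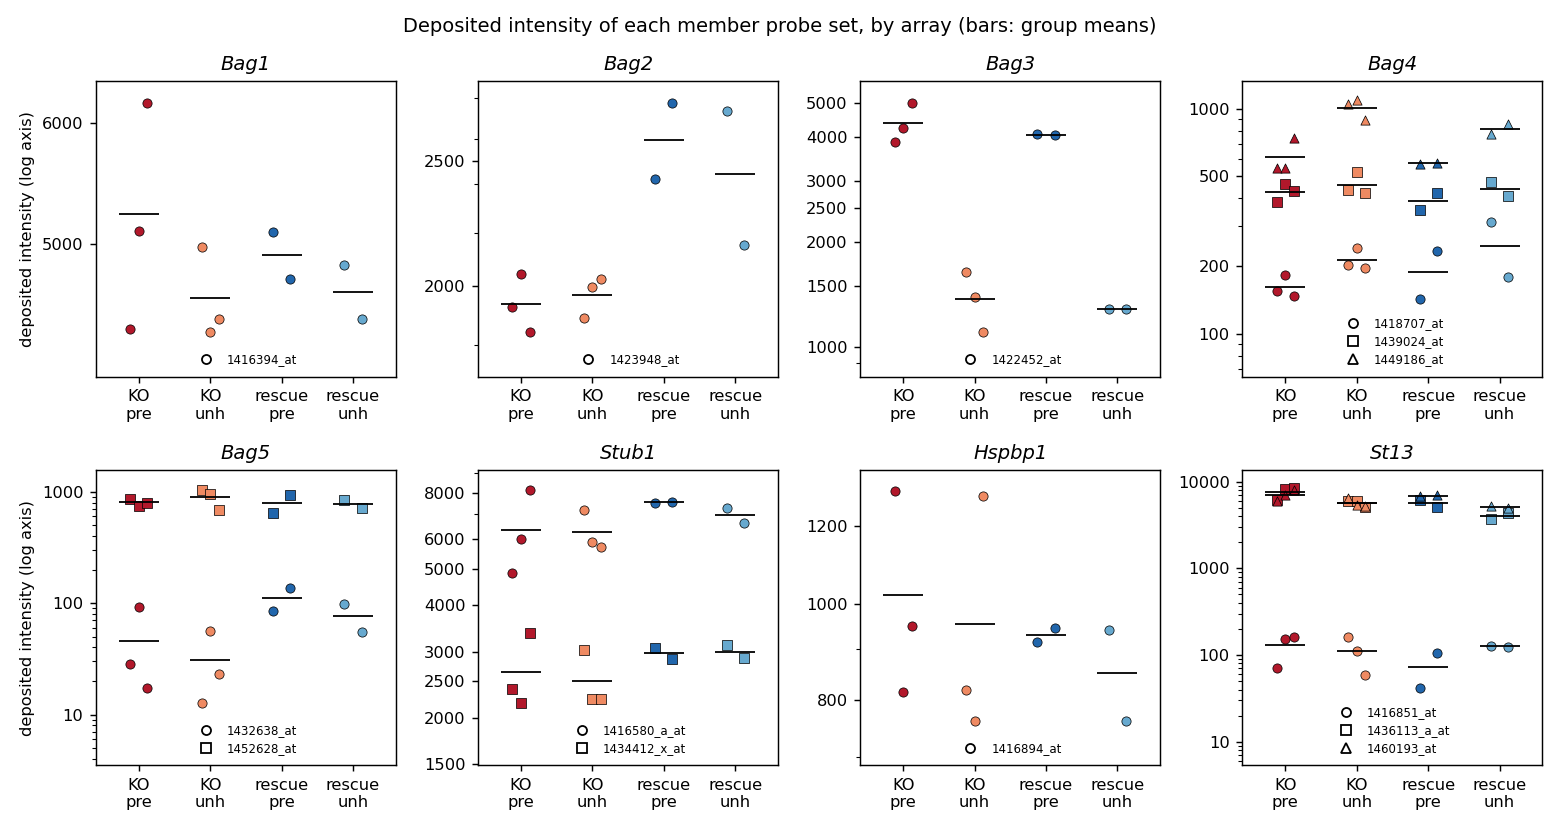
Deposited intensity (log y axis) of all 14 probe sets in every array, by gene, for KO preshocked (KO pre), KO unheated (KO unh), rescue preshocked and rescue unheated; points are arrays, marker shapes are probe sets and bars are group means. Bag3 is at 3883 or more in all preshocked arrays and at 1640 or less in all unheated ones, and the 6 KO arrays of Bag2 lie below the 4 rescue arrays.

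Among the cochaperones without a BAG domain, St13 (chromosome 15, 81365044 to 81399694) showed a small difference that ran the same way in all 5 pairs. Probe set 1460193_at read 6046, 6929 and 8087 in preshocked KO cells, against 6509, 5303 and 5290 in unheated KO cells. In rescue cells it read 6819 and 6995 after preshock, against 5207 and 4940 without heat. After normalization all 5 preshocked arrays lay above all 5 unheated ones, as for 2.35% of all genes tested, whereas the deposited values overlapped through KO arrays 5 and 14. The within-pair differences were 0.18 to 0.38 (log2), and 12.6% of all genes tested were higher in 5 of 5 pairs.

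The St13 response was 0.23 ± 0.12 in KO cells (log2, SE, adjusted p = 0.545 by limma) and 0.36 ± 0.15 in rescue cells (adjusted p = 0.546). The mean of the lines was 0.29 ± 0.10 (95% interval 0.07 to 0.51, adjusted p = 0.146), and 0.0232 with array pairs as a block, in a fit that called 17.4% of all genes. Over all alternatives that adjusted p ranged from 0.0232 to 0.905. A different probe set, 1436113_a_at, read 6189, 8113 and 8328 in preshocked KO and 5931, 5902 and 5093 in unheated KO cells. It read 6158 and 5073 in preshocked rescue and 3740 and 4360 in unheated rescue cells. It was higher in 5 of 5 pairs (0.28 to 0.42), as for 9.34% of all probe sets.

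The St13 probe sets differed in how they set the lines apart. Probe set 1436113_a_at was higher in KO than in rescue cells by 0.50 ± 0.14 (log2, SE, adjusted p = 0.235 over all probe sets by limma), against 0.14 ± 0.14 for 1460193_at. Over both treatments 0 of the 14 probe sets were called between the lines by limma (0.204% of all probe sets). There were 2 at an unadjusted p under 0.05, and the share of all probe sets was not counted. In the fit by gene it was 1 of the 8 members, against 25.6% of all genes. With a floor of 16 units or with robust variance estimation the adjusted p of 1436113_a_at was 0.0264 and 0.0275, and over all alternatives it ranged from 0.0264 to 0.943. The dim probe set 1416851_at read 42.2 to 163 over all arrays, lowest on preshocked rescue array 31, and was higher in 3 pairs and lower in 2.

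Stub1 and Hspbp1 were not called in any comparison. Stub1 (1416580_a_at, chromosome 17, 25830634 to 25832919) read 4866, 6009 and 8141 in preshocked KO, 7201, 5884 and 5717 in unheated KO, 7526 and 7561 in preshocked rescue and 7290 and 6654 in unheated rescue cells. Its response was -0.10 in KO (95% interval -0.45 to 0.25) and 0.03 in rescue cells (-0.40 to 0.45). Its probe set 1434412_x_at, a type whose probes may also match other sequences, had 3 pairs higher and 2 lower. Hspbp1 (chromosome 7, 4660515 to 4685188), a non-BAG exchange factor that also inhibits Stub1, read 814 to 1301 in preshocked KO, 762 to 1287 in unheated KO, 916 and 947 in preshocked rescue and 943 and 762 in unheated rescue cells. It was higher in 5 of 5 pairs, by 0.02 to 0.35 (log2), as for 12.6% of all genes tested. Its response of 0.18 ± 0.19 in the mean of the lines spanned -0.25 to 0.62. The highest Hspbp1 values in each KO group were on arrays 5 and 6, which have the high medians, and the part of that in its spread was not tested.

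**Figure D3:**
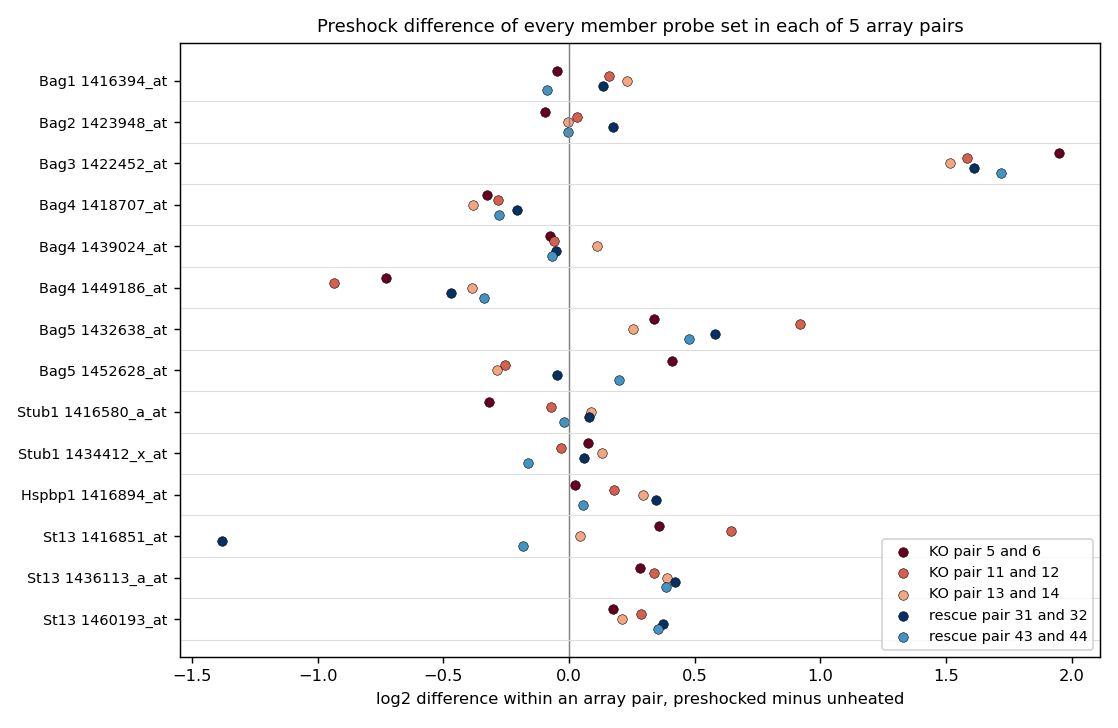
Log2 difference, preshocked minus unheated, within each of 5 adjoining array pairs (x axis) for all 14 probe sets (rows), KO pairs in red tones and rescue pairs in blue tones. Bag3 lies between 1.52 and 1.95 in every pair, Bag4 1449186_at between -0.94 and -0.34, and St13 1460193_at between 0.18 and 0.38.

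Between the lines no member passed the test in unheated cells, in preshocked cells or over both treatments, where limma called 0.421%, 0.339% and 4.88% of all genes. At an unadjusted p under 0.05 there were 0, 1 and 1 members, the last 2 being Bag2, where 12.9%, 14.1% and 25.6% of all genes reached it. The 8 differences over both treatments lay between -0.33 and 0.20 (log2), with a median of 0.11, beside 0.02 over all genes tested. For the preshock response the 8 members had a median of 0.05 in KO and 0.08 in rescue cells, beside -0.05 and -0.03 over all genes.

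**Figure D4:**
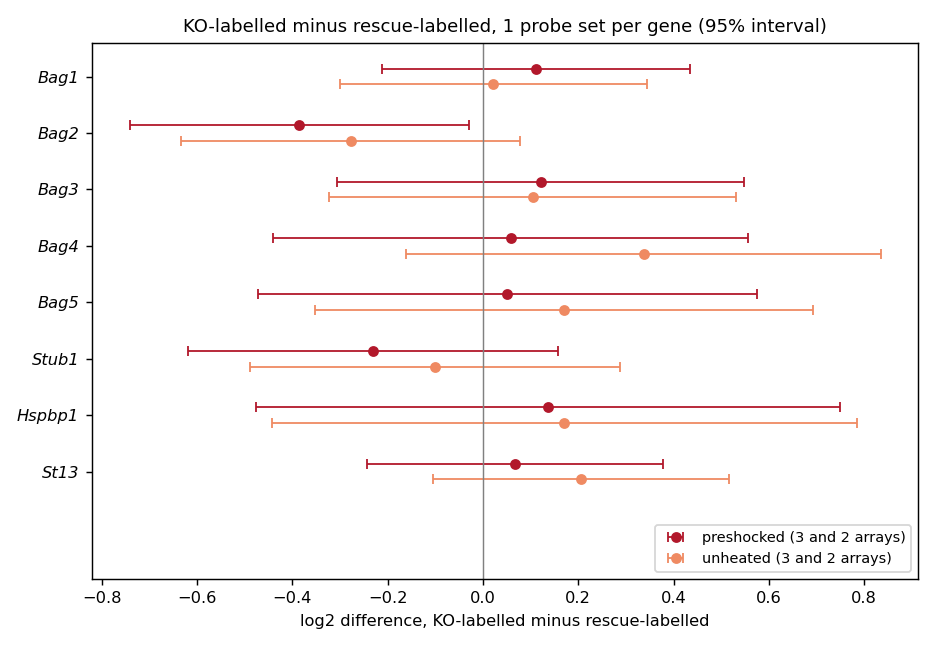
Log2 difference between KO and rescue arrays (x axis) for each of the 8 genes (rows), preshocked above and unheated below, with 95% intervals from limma. No gene has an adjusted p below 0.05, and Bag2 lies lowest at -0.39 in preshocked cells.

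The partners of Bag3 in autophagy were a list of 18 genes, of which 16 were tested. In KO cells, where 1.77% of all genes were called, 3 of the 16 rose and none fell: Hspb8, the small heat shock protein that binds Bag3 directly (1.28 ± 0.16, log2, SE), Hspb1 (1.92 ± 0.26) and Cryab (0.86 ± 0.16). In rescue cells none of the 16 was called by limma (0.357% of all genes were) and 3 had an unadjusted p under 0.05 (8.36% of all genes had). In the mean of the lines Hspb8 (1.22 ± 0.12), Hspb1 (1.81 ± 0.20) and Cryab (0.79 ± 0.13) rose, with 4.42% of all genes called. Synpo, an actin-associated protein, fell there (-0.68 ± 0.15). None of the 16 was called in the difference of responses. With array pairs as a block 4 were higher and 1 lower in KO cells (9.15% of all genes called), and Hspb8 was higher in rescue cells (1.5%). Between the lines Hdac6, a deacetylase of the aggresome pathway, was lower in KO cells over both treatments (-1.18 ± 0.18), 1 of 16 where 4.88% of all genes were called. Its adjusted p was 0.0854 with array pairs as a block, a fit that called 0.229% of all genes.

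The genes that work opposite the exchange factors in the Hsp70 cycle also held called members. Of 14 J-domain genes tested, 3 were called higher in KO cells (1.77% of all genes called) and 2 in rescue cells (0.357%). Dnajb1 rose by 2.64 ± 0.16 in KO and 2.87 ± 0.20 in rescue cells (log2, SE), and Dnajb4 by 2.06 in KO and 2.44 in rescue cells. Dnaja4 rose by 4.22 in KO cells and by 3.84 ± 0.44 in the mean of the lines. None of the 14 was called in the difference of responses. Of 7 other exchange factors, Hsph1, an Hsp110 protein, rose in KO (1.90 ± 0.20) and rescue cells (2.09 ± 0.24). Of 11 Hsp70 and Hsp110 genes, which include Hsph1, 2 rose in each line, Hspa1b and Hsph1. Bag6, a more distant BAG-domain relative, was not called, with 0.15 in KO and 0.11 in rescue cells.

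The partners of Stub1 and the Hsp90-linking genes held few called members. Of 12 partners of Stub1 in ubiquitin transfer none was called after preshock by limma (1.77% of all genes were in KO and 0.357% in rescue cells). In each line 1 had an unadjusted p under 0.05, as had 12.8% of all genes in KO and 8.36% in rescue cells. Ube2d3, a conjugating enzyme, was lower in KO than in rescue cells over both treatments (-0.71 ± 0.11, log2, SE), 1 of 12 where 4.88% of all genes were called. The block ended that call (adjusted p = 0.111) and added Ubqln1, higher in KO cells after preshock, 1 of 12 where it called 9.15% of all genes. Of 13 cochaperones that link Hsp70 to Hsp90 none was called in either line. At an unadjusted p under 0.05 there were 2 in KO cells (12.8% of all genes) and 1 in rescue cells (8.36%). With the block Ahsa1 and Hsp90aa1 were called higher in KO cells, 2 of 13 where 9.15% of all genes were called. Of 4 listed heat shock factor and binding protein genes 2 were tested: Hsf2, a heat shock factor, and Hsbp1, a protein that binds such factors. Neither was called in either line, nor reached an unadjusted p under 0.05 in either. In the mean of the lines Hsf2 was 0.58 ± 0.25 (log2, SE, unadjusted p = 0.0481, adjusted p = 0.283 by limma). There 17.3% of all genes had an unadjusted p under 0.05.

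Over the 10 arrays, the genes whose normalized log2 values were most like those of Bag3 were Ccng2 (Pearson r = 0.993), Cpn1 (0.992), Rgs2, Mmp13 and Dnajb1 (0.991 each). All points share the step between heated and unheated arrays, so these values describe that step, with no test. Their KO responses were 2.00 for Ccng2, 4.78 for Cpn1, 2.20 for Rgs2, 1.80 for Mmp13 and 2.64 for Dnajb1 (log2). The genes most like Bag4 were Tubgcp5 (0.969) and Sfxn5 (0.965), and those most like Bag2 were Wrnip1 (0.981) and Tle5 (0.98). Those most like St13 were Pold4 (0.961) and Bdnf (0.939), most like Hspbp1 Lrfn1 (0.972) and Plod3 (0.965), and most like Stub1 Selenoh (0.937) and Tm4sf1 (0.935). The highest values for Bag1 (1700007L15Rik, 0.886) and Bag5 (4933406F09Rik, 0.909) were lower.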

How the data were processed

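The deposited table holds 1 intensity per probe set and array on a linear scale, already summarised by the authors with software the labels do not name. Array medians differed by 1.08 on the log2 scale, so the deposited intensities were floored at 1 unit (4935 values), put on the log2 scale and quantile normalized. Genes came from the platform annotation: 34945 probe sets had 1 symbol, 932 several and 9160 none, and 64 control probe sets were left out. The brightest probe set stood for a gene, the brightest 60% of genes were tested with limma 3.58.1 (R 4.3.3, statmod 1.5.0), and p-values were adjusted by the Benjamini-Hochberg method. The 14 member probe sets were also fitted among all 45037. The number of arrays limits the precision.

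Adjoining array numbers (5 and 6, 11 and 12, 13 and 14, 31 and 32, 43 and 44) were taken as pairs: deviations from the group means correlated at 0.37 to 0.721 in all 5, and 10 of 10 arrays had their best partner in the pair. This pairing comes from the numbers and the data, not from a stated batch.

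Members and gene lists were chosen with earlier results of these data known. Named genes were all 8 members, up to 4 called genes per list and comparison, taken by adjusted p from the lowest up, and by Pearson r the 5 genes most like Bag3 and the 2 most like each other member. Alternatives were the floor, scaling, filter, probe set rule, variance estimate, groups fitted, pair block and left-out arrays. Promoter sequences are RefSeq's. The list of cell death partners is not reported here.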

Additional observations from a re-analysis of the deposited data

How the results depend on the processing

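With 1 probe set per gene, Bag3 kept its direction in each line and its call in the mean of the lines under every alternative run (adjusted p 4.8e-05 to 0.0231 in the mean); among all probe sets that call was lost under those named below. The number of members called in KO cells (1) became 0 with median centring and 2 with the replicate block. In rescue cells (1) it became 0 with median centring, with no filter (Bag3 adjusted p 0.0845) and with only the groups compared (0.122), and was 0 to 1 with an array left out. In the mean of the lines (1) it became 2 with the deposited scaling and 3 with the replicate block, which added Bag4 and St13, and was 1 to 2 with an array left out; Bag4 joined without KO preshocked array 13 (adjusted p 0.0425). Among all probe sets, the members called in KO and in rescue cells (0 each) became 1 with a floor of 16 and 1 with robust variance, those in the mean of the lines (1) became 0 with median centring, the replicate block or no arrays 5 and 6, and 0 to 1 with an array left out, and those between the lines (0) became 1 with a floor of 16 and 1 with robust variance. The pair block changed no other call of a member. Over all genes, calls in KO cells (103 higher and 90 lower) became 25 and 3 with median centring, and in the mean of the lines (201 and 281) 79 and 48; the block called 999 and 1901 genes there. Between the lines over both treatments, calls (255 higher and 278 lower) became 108 and 627 with median centring and 19 and 6 with the block.

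No reversal was of a called value. Median centring moved the median of all genes between the lines by about -0.46, and with it St13 (-0.417), Bag1 (-0.475), Bag3 (-0.413), Hspbp1 (-0.385), Bag5 (-0.395), Bag4 (-0.309), St13 1436113_a_at (-0.055) and Bag4 1439024_at (-0.407) turned negative. It also turned the KO responses of Stub1 (0.077) and Bag2 (0.060) and the mean responses of Stub1 (0.102) and Bag5 (-0.019). Without arrays 5 and 6 the KO responses of Stub1 (0.009) and Bag2 (0.015), the mean responses of Stub1 (0.020), Bag5 (-0.099) and Stub1 1434412_x_at (-0.000), the Bag3 difference of responses (-0.118), and the line differences of Hspbp1 (-0.050) and St13 1416851_at (0.557) turned. Averaging probe sets turned Bag5 in KO (0.231), Stub1 (-0.010) and St13 (-0.005) in rescue cells, and Bag5 (-0.945) and Bag4 (-0.033) between the lines. The deposited scaling turned Bag5 in rescue cells (-0.008), Stub1 (0.053) and Bag5 (-0.068) in the mean, and St13 1416851_at between the lines (0.283). Leaving out 1 array gave KO responses of -0.228 to 0.002 for Stub1, -0.064 to 0.017 for Bag2, -0.001 to 0.408 for Hspbp1 and -0.260 to 0.109 for Bag5. Rescue responses were -0.072 to 0.133 for Stub1, -0.073 to 0.121 for Bag1, -0.098 to 0.269 for Bag2 and -0.117 to 0.266 for Bag5. Mean responses were -0.099 to 0.017 for Stub1, -0.060 to 0.123 for Bag2, -0.092 to 0.112 for Bag5, -0.555 to 0.109 for St13 1416851_at, -0.076 to 0.067 for Stub1 1434412_x_at and -0.099 to 0.047 for Bag4 1439024_at. The Bag3 difference of responses was -0.149 to 0.158, and St13 1416851_at between the lines -0.410 to 0.210. The cause of these shifts was not tested. Dim probe sets (Bag5 1432638_at, St13 1416851_at) limit what their values show.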
